A study of Mus musculus with 8 samples.

Results

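The T and B lymphocyte markers examined here are 9 genes, found by symbol in both deposited tables of read counts. They comprise 6 T cell genes (Cd3e, Cd3g, Cd4, Cd8a, Cd2 and Lck) and 3 B cell genes (Cd79b, Ighm and Igkc). One table lists 54532 genes for the PTS + RS and RS groups, and the other lists 28229 genes for the HDAC3 inhibitor and NaCl groups. RNA-seq was performed on 8 libraries of mouse brain taken on Day 21, with 2 libraries in each of 4 groups.

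All mice were male C57BL/6, for which the methods state an age only at the behavioural test and not at tissue collection, and all were subjected to daily restraint stress (RS). In the PTS + RS group a photothrombotic stroke (PTS), a cortical infarct made by light on the skull after Rose Bengal, was added to the restraint, while the RS group had no stroke. The PTS + RS and RS libraries are labelled cortex. The HDAC3 inhibitor and NaCl groups both had stroke and restraint. The HDAC3 inhibitor group also received RGFP109, an inhibitor of the histone deacetylase HDAC3, by subcutaneous injection at 60 mg/kg daily over 2 weeks. The control of that group is labelled NaCl and is called vehicle in the study's text. The solvent of RGFP109 held DMSO and cyclodextrin, and whether the control of these libraries held them is not stated. In both of these groups replicate 1 is labelled cortex and replicate 2 amygdala, so the labelled tissue and the replicate number are the same thing. Whether a library holds 1 mouse or a pool is not stated, and p-values therefore measure only the spread between these libraries, which may be technical.

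T cells recognise antigen through a receptor made of variable chains and the invariant CD3 chains, of which Cd3e encodes epsilon and Cd3g gamma. Cd4 and Cd8a encode the coreceptors of helper and cytotoxic T cells, Lck the kinase that these coreceptors carry, and Cd2 an adhesion receptor. B cells use membrane immunoglobulin as their receptor: Ighm encodes the constant part of the IgM heavy chain, Igkc that of the kappa light chain, and Cd79b a signalling partner of the receptor. Plasma cells secrete immunoglobulin and carry very large amounts of its RNA. The healthy brain parenchyma holds few lymphocytes, while the meninges, choroid plexus and blood hold more, and after a stroke lymphocytes enter the damaged tissue over days to weeks.

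Libraries held between 15902013 and 21712033 counts on genes, so that 3 counts, taken here as the floor below which no fold is read, equal between 0.138 and 0.189 CPM (counts scaled to the library size). Some libraries stood apart from their group. Transcripts of the choroid plexus gene Ttr were counted 24922 and 242 times in PTS + RS replicates 1 and 2, and 29168 and 53234 times in RS replicates 1 and 2. In the second table, Ttr had 21258 counts in HDAC3 inhibitor replicate 1 and between 25 and 33 in the other 3 libraries. NaCl replicate 1 alone carried olfactory bulb transcripts, with 2040 counts of Omp against 3 to 8 in the other 7 libraries. Regional markers gave no clear match to these tissue labels. In the fit with treatment as a term, all 8 cortical markers listed were higher in the amygdala-labelled than in the cortex-labelled libraries, with a median log2 difference of 0.95, and summed to 791 and 709 CPM in the amygdala-labelled HDAC3 inhibitor and NaCl libraries against 532 and 372 CPM in the cortex-labelled ones. Of 8 amygdala markers 6 were higher in the amygdala-labelled libraries, with a median of 0.53, while their summed level was lower there, at 182 and 171 against 266 and 241 CPM. These libraries are therefore called amygdala-labelled and cortex-labelled below.

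The CD3 chain genes, the defining markers of T cells, were at or close to the floor. Cd3e (ENSMUSG00000032093, chromosome 9, 44998740 to 45009627, GRCm38) had 2 and 1 counts in the PTS + RS libraries and 1 and 5 in the RS libraries. In the second table Cd3e had 3 and 7 counts in HDAC3 inhibitor replicates 1 and 2, and 0 and 8 in NaCl replicates 1 and 2. Cd3g (ENSMUSG00000002033, chromosome 9, 44969572 to 44980431) had no count in any PTS + RS or RS library, and 3, 6, 1 and 6 counts in HDAC3 inhibitor 1 and 2 and NaCl 1 and 2. A count of 0 allows up to 3 counts, and all counting intervals and floors given here cover counting error only. Cd3e and Cd3g were thus highest in the amygdala-labelled libraries, at 6 to 8 counts. With Cd3d and Cd247 added, the 4 CD3 chain genes had 20 and 22 counts in the amygdala-labelled libraries, 9 and 7 in the cortex-labelled libraries of that table, and between 1 and 7 in the first table.

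The coreceptor genes differed from each other across the libraries. Cd4 (ENSMUSG00000023274, chromosome 6, 124864692 to 124888221) had 7 and 6 counts in the PTS + RS libraries, 3 and 3 in the RS libraries, 5 and 250 in HDAC3 inhibitor 1 and 2, and 6 and 193 in NaCl 1 and 2. Counts of Cd4 were at most 7 in the 6 cortex-labelled libraries and at least 193 in both amygdala-labelled ones. Cd8a (ENSMUSG00000053977, chromosome 6, 71373427 to 71379173) had 6 counts in PTS + RS 1 and none in PTS + RS 2, RS 1 or RS 2. In the second table Cd8a had 2, 5, 3 and 3 counts, in the order HDAC3 inhibitor 1, HDAC3 inhibitor 2, NaCl 1 and NaCl 2, with no gap between the labelled tissues. In the amygdala-labelled libraries Cd4 therefore had 250 and 193 counts where the 4 CD3 chain genes together had 20 and 22.

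Cd2 (ENSMUSG00000027863, chromosome 3, 101275899 to 101287939) had 0, 1, 1 and 0 counts in PTS + RS 1 and 2 and RS 1 and 2, and 1, 8, 0 and 4 in HDAC3 inhibitor 1 and 2 and NaCl 1 and 2. Only the amygdala-labelled libraries were above the floor for Cd2. Lck (ENSMUSG00000000409, chromosome 4, 129548344 to 129573641) was the most evenly counted T cell gene. It had 27 and 19 counts in the PTS + RS libraries, 29 and 10 in the RS libraries, 22 and 32 in the HDAC3 inhibitor libraries and 25 and 34 in the NaCl libraries. Lck was above the floor in all 8 libraries, including those where Cd3g was not counted.

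The promoters of Lck and Cd3e are shown because Lck was counted in every library while Cd3e was at the floor in several of them. They come from RefSeq on GRCm38.p6, where 4 of the 9 genes have an entry (Cd3e, Cd3g, Cd8a and Lck). Each holds 250 bases before and 50 after a transcription start, and Lck has a distal and a proximal start. Capitals mark matches, on either strand, to CAGGTG (an E-box, bound by E proteins), AGGAAG (the core of ETS factor sites) and TGTGGT (the core of RUNX sites).
Lck distal, minus strand, chr4:129573592-129573891: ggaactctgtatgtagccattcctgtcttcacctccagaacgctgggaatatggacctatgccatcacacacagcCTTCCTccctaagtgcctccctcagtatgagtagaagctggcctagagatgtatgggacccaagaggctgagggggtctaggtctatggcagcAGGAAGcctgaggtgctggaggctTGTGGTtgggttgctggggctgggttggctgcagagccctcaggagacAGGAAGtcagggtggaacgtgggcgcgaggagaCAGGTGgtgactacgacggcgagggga
Lck proximal, minus strand, chr4:129558323-129558622: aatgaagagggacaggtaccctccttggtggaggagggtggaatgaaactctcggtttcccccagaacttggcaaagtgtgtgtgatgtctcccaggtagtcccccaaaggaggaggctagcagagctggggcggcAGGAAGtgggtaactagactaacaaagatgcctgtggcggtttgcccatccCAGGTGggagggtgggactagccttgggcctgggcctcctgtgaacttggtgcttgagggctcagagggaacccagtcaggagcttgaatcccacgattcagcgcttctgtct
Cd3e, minus strand, chr9:45009562-45009861: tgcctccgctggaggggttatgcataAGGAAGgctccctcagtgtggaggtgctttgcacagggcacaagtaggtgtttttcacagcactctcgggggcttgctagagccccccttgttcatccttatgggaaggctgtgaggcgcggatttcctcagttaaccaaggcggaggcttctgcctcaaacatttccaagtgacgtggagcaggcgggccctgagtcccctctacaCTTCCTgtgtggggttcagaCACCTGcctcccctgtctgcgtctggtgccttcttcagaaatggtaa
The distal Lck window held 1 E-box, 3 ETS cores and 1 RUNX core, the proximal one held 1 E-box and 1 ETS core, and the Cd3e window held 1 E-box and 2 ETS cores. Of 32851 RefSeq promoter windows of this length, 20.2% held CAGGTG, 35.4% held AGGAAG and 16.8% held TGTGGT on either strand. A match is a description of the letters, and counts per gene do not tell which Lck start was used.

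Among the B cell genes, Cd79b (ENSMUSG00000040592, chromosome 11, 106311341 to 106314762) was low. It had 4 and 13 counts in the PTS + RS libraries, 3 and 2 in the RS libraries, 3 and 2 in the HDAC3 inhibitor libraries, and 1 and 6 in the NaCl libraries. The highest Cd79b count was in PTS + RS 2, and no group of the second table stood apart. Igkc (ENSMUSG00000076609, chromosome 6, 70726435 to 70726966) had 14 and 2 counts in the PTS + RS libraries and 5 and 1 in the RS libraries. It had 3 and 68 counts in HDAC3 inhibitor 1 and 2, and 1 and 110 in NaCl 1 and 2, so that Igkc, like Cd4, was high in the amygdala-labelled libraries and at or under the floor in the cortex-labelled libraries of the same table.

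Ighm (ENSMUSG00000076617, chromosome 12, 113418558 to 113422730) was the only gene of the 9 above 100 counts in every library. It had 317 and 320 counts in the PTS + RS libraries, 163 and 122 in the RS libraries, 124 and 496 in HDAC3 inhibitor 1 and 2, and 138 and 379 in NaCl 1 and 2. Ighm was thus high in both PTS + RS libraries of the first table and in both amygdala-labelled libraries of the second, and lay between 122 and 163 counts in the other 4. Of these 4, HDAC3 inhibitor 1 and NaCl 1 are labelled cortex and, unlike the RS libraries, had stroke as well as restraint.

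**Figure D1:**
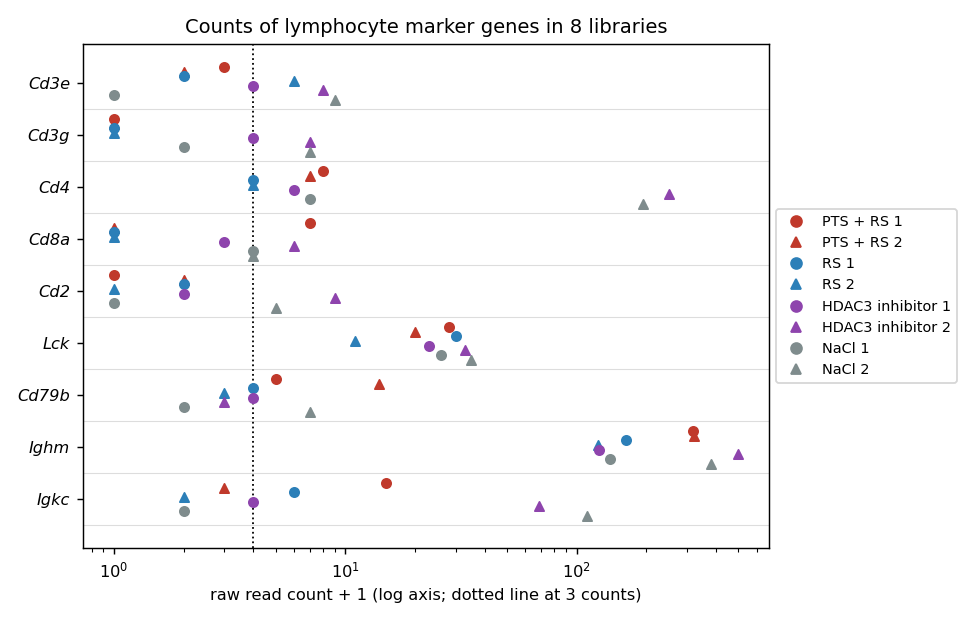
Raw read counts plus 1 (x axis, log scale) of the 9 lymphocyte markers (y axis), 1 point per library, with colour for the group, circles for replicate 1 and triangles for replicate 2; points of a gene are shifted vertically for legibility and the dotted line stands at 3 counts. Most points of Cd3e, Cd3g, Cd8a and Cd2 lie near or left of the line, Ighm lies above 100 in all libraries, and the triangles of Cd4 and Igkc in the HDAC3 inhibitor and NaCl groups lie far to the right of the circles.

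Levels of different genes were compared per length, as deposited FPKM (fragments per kilobase of gene, scaled to the mapped reads). In the PTS + RS group Ighm led at 9.91 ± 0.27 FPKM (SD, n = 2). Igkc followed at 0.873 ± 0.918, Lck at 0.460 ± 0.104 and Cd79b at 0.351 ± 0.268, which overlapped one another, while Ighm lay above all of them in both libraries. Cd4 was at 0.0945 ± 0.0083 FPKM, and Cd8a, Cd3e and Cd2 lay between 0.0171 and 0.0477 on average, at the floor in at least one library each.

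In the RS group the order in FPKM was Ighm at 4.40 ± 0.48, then Lck at 0.379 ± 0.232 and Igkc at 0.317 ± 0.281, which overlapped, then Cd79b at 0.101 ± 0.019. The remaining T cell genes were at most 0.0452 FPKM on average. In the second table the SD of a group spans both labelled tissues, so levels are given by library. The cortex-labelled libraries had the same 3 leading genes as the RS group, with Ighm at 4.16 and 4.11 FPKM, Lck at 0.476 and 0.480, and Igkc at 0.357 and 0.106.

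The order differed in the amygdala-labelled libraries. In HDAC3 inhibitor 2, Ighm stood at 12.3 FPKM, Igkc at 5.98, Cd4 at 2.90 and Lck at 0.511. In NaCl 2, Igkc at 11.2 and Ighm at 10.9 were almost level, followed by Cd4 at 2.59 and Lck at 0.629. Ighm counts outnumbered Igkc counts 7.29 to 1 in HDAC3 inhibitor 2 and 3.45 to 1 in NaCl 2, against 22.6 to 1 or more in each of the other 6 libraries, where Igkc had at most 14 counts.

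**Figure D2:**
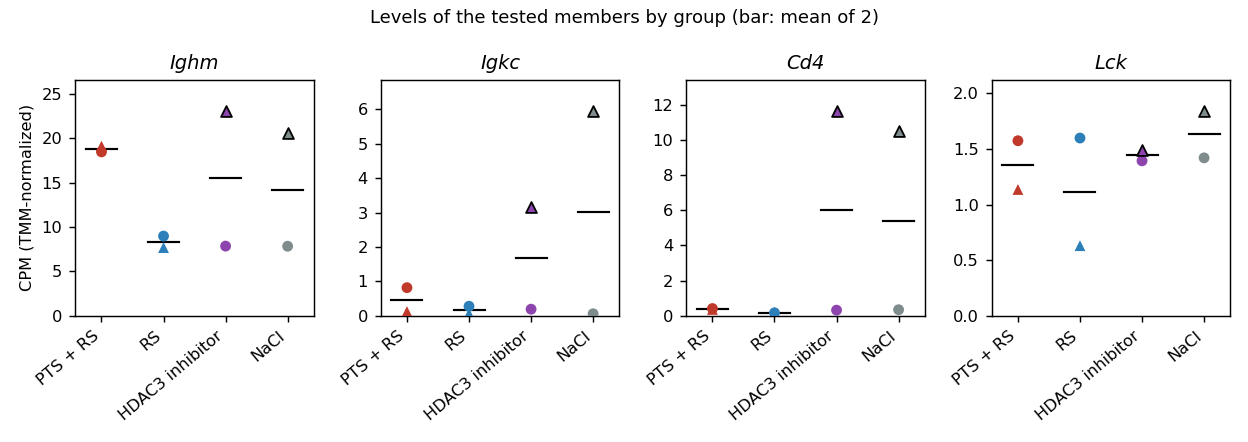
Level in CPM (y axis, TMM-normalized within each table) of Ighm, Igkc, Cd4 and Lck by group (x axis); points are libraries, circles for replicate 1, triangles for replicate 2, a black outline marks the amygdala-labelled libraries, and bars are means of 2. Both PTS + RS points of Ighm lie above both RS points, and in the HDAC3 inhibitor and NaCl groups the outlined triangles of Ighm, Igkc and Cd4 lie above the circles while those of Lck lie close to them.

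The comparison of PTS + RS with RS asks how a stroke added to restraint stress changes the cortex. Ighm rose. Its level was 18.5 and 19.1 CPM in the PTS + RS libraries (18.8 ± 0.46, SD, n = 2) and 8.98 and 7.69 CPM in the RS libraries (8.33 ± 0.92), with no overlap between the groups. The log2 fold change was 1.17 (standard error 0.151, 95% interval 0.81 to 1.53, adjusted p = 0.00877 by the edgeR quasi-likelihood test, with Benjamini-Hochberg correction for 17581 genes). The call rule, an adjusted p under 0.05 with a log2 change of 1 or more in either direction, was met by 2.21% of all tested genes, 2.12% as higher and 0.091% as lower. The call of Ighm was lost without RS 1 (log2 1.29, adjusted p = 0.0502 in edgeR) and without RS 2 (1.06, adjusted p = 0.0680 in edgeR). It held without PTS + RS 2, the library with little Ttr (1.14, adjusted p = 7.77e-04 in edgeR). Ighm was at 7.85 and 7.84 CPM in HDAC3 inhibitor 1 and NaCl 1 of the second table, cortex-labelled libraries that also had stroke and restraint. That is close to the RS libraries, but these values were normalized within the other table, and the difference from PTS + RS was not tested. Nearness to RS was not particular to Ighm. The 10 microglia and macrophage markers listed summed to 309 and 238 CPM there, against 262 and 232 CPM in RS. In PTS + RS these markers summed to 987 and 811 CPM. In bulk tissue, more cells of a type and more RNA per cell cannot be told apart.

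Lck was the only other marker of the 9 with enough counts for the test. Its levels were 1.57 and 1.13 CPM in the PTS + RS libraries and 1.60 and 0.630 CPM in the RS libraries, and the groups overlapped. The log2 fold change of Lck was 0.26 with a 95% interval from -0.94 to 1.46 (adjusted p = 0.841 in edgeR), and its sign turned to -0.24 without RS 2. The interval of Lck includes the fold change of Ighm.

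The other 7 genes were given by raw counts. With both libraries of a group added up, Cd79b had 17 counts in PTS + RS and 5 in RS, a ratio of 3.42 after scaling by library size (95% counting interval 1.21 to 11.9). Cd4 had 13 against 6 counts, a ratio of 2.18 (0.774 to 7.0), and Igkc had 16 against 6, a ratio of 2.68 (0.998 to 8.38), with 14 of the 16 in 1 library. Cd3e had 3 against 6 counts (ratio 0.503, 0.0815 to 2.36), and all 6 counts of Cd8a were in PTS + RS 1. Of the 8 genes with a count, the libraries of Ighm, Cd79b and Cd4 did not overlap between the groups and were higher with the stroke. Of all tested genes, 25.7% separated in that direction and 50.2% in either. Cd79b and Cd4 did not pass the filter, and the share among genes with so few counts was not obtained. When no filter was applied, so that all 8 were tested, Ighm alone was called, and the adjusted p of the others lay at 0.460 or above (edgeR's quasi-likelihood test).

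Other immune genes moved beside Ighm in this comparison. All 10 markers of microglia and macrophages (among them Csf1r, Cx3cr1, P2ry12, Tmem119 and Cd68) were called higher, with a median log2 fold change of 2.03, and their summed level was 987 and 811 CPM with PTS + RS against 262 and 232 CPM with RS. No marker of that list was at 0. The summed level of 5 red blood cell genes was 40.7 and 37.2 CPM in PTS + RS against 60.8 and 45.4 CPM in RS. This sum was lower with no overlap, where 24.5% of all tested genes separated in that direction. Of the 5 genes, 2 were higher and 3 lower, with a median log2 fold change of -0.03. By edgeR 0 of the 5 were called (2 at an unadjusted p under 0.05). The part of these cells in the result for Ighm was not tested.

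Genes of the T cell receptor complex and its signalling numbered 20 besides the 9 markers, all with a count. Of the 7 that passed the filter, 1 rose and none fell, with a median log2 fold change of 0.28 against 0.00 over all tested genes. The gene that rose was Lcp2, an adaptor of receptor signalling that myeloid cells also use, with 171 and 129 counts in PTS + RS against 30 and 21 in RS (log2 2.56, SE 0.261). The T cell receptor genes themselves had few counts: Trac had 16 and 14 counts against 13 and 14, Trbc2 had 15 and 0 against 5 and 1, and Cd3d and Cd247 had at most 3 counts in each of these libraries. A change of Trac was not detectable at this depth (log2 0.15, SE 0.435).

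The list of B cell and plasma cell genes held 23 besides the markers, of which 17 had a count and 6 passed the filter. Cd22, Blnk and Btk rose and none fell, with a median of 0.86 over the 6, where 2.12% of all tested genes were called higher. Cd22, an inhibitory receptor found on B cells and on microglia, had 91 and 53 counts in PTS + RS and 3 and 3 in RS. It passed the filter through PTS + RS alone, so that its direction was fixed by passing it. Blnk, an adaptor, had 186 and 142 against 60 and 50 counts, and Btk, a kinase, 91 and 59 against 21 and 12, and both also act in myeloid cells. Genes that mark B cells more narrowly had few counts, with no count of Ms4a1 and 11, 8, 10 and 4 counts of Cd79a, in the order PTS + RS 1, PTS + RS 2, RS 1 and RS 2. Jchain, which joins secreted IgM and IgA, had 11 and 19 counts against 14 and 16 (log2 0.00, SE 0.475).

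Summed counts of the other antigen receptor segments overlapped between PTS + RS and RS. The 12 other immunoglobulin constant genes together had 20 and 14 counts in PTS + RS against 15 and 8 in RS, and 218 annotated immunoglobulin variable genes together had 7 and 5 against 5 and 7. The Ighm counts were 94.6% to 97.6% of the counts of the 3 B cell markers in these 4 libraries. The 144 T cell receptor variable genes had 13 and 8 against 11 and 2 counts in sum. The 8 T cell receptor constant genes had 42 and 19 against 20 and 16 counts, which overlapped, and only after scaling to depth were their levels just apart, at 2.50 and 1.11 against 1.10 and 1.01 CPM, where 25.7% of all tested genes separated in that direction.

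Among 24 lymphocyte chemokines, their receptors and adhesion molecules, 12 passed the filter and 4 rose, with a median log2 fold change of 1.24. Of the 12, 2 genes, Cxcl10 among them, had fewer than 10 counts in each RS library. They passed through PTS + RS alone, so that their direction was fixed by passing the filter. Among the 4 that rose were Cxcl10, a chemokine that draws activated T cells (238 and 72 against 9 and 9 counts), Icam1, the endothelial ligand of a leukocyte integrin (134 and 133 against 39 and 42), and Selplg, a selectin ligand (803 and 890 against 359 and 326). Of 14 lymphocyte transcription factors and homeostasis genes, 7 passed and Ikzf1 alone rose (268 and 184 against 44 and 43 counts). All 10 microglia and macrophage markers also rose in this comparison, and their part in the rises of these lists was not tested. None of 14 natural killer and cytotoxic genes passed the filter, their highest being Tbx21, Il2rb and Gzmk, with at most 15 counts in these 4 libraries.

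**Figure D3:**
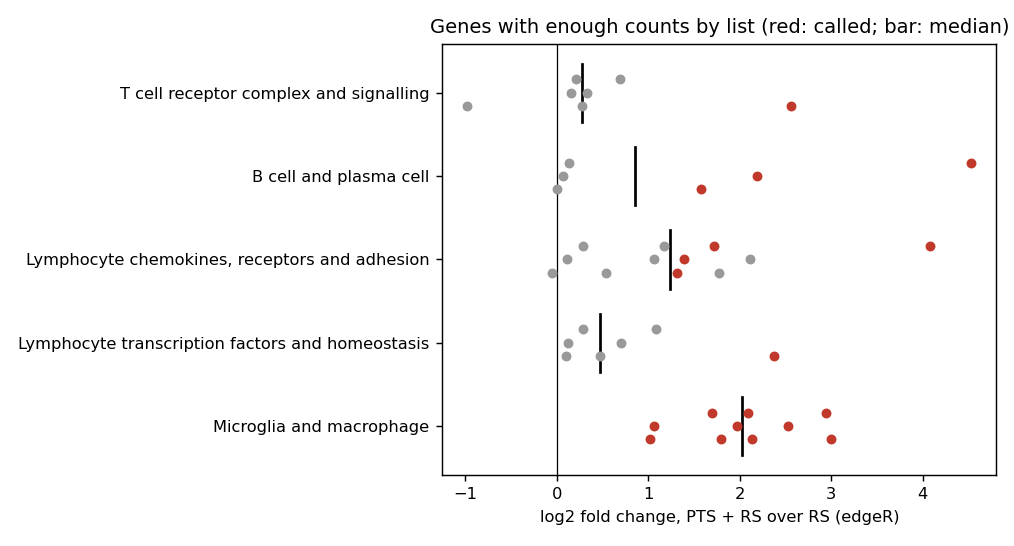
Log2 fold change of PTS + RS over RS (x axis, edgeR) for each gene with enough counts in 4 lists of lymphocyte genes and a list of microglia and macrophage markers (y axis); red points were called, grey points were not, and black bars are list medians. All 10 microglia and macrophage genes are red, against 1 of 7, 3 of 6, 4 of 12 and 1 of 7 in the lymphocyte lists from top to bottom. Of all tested genes 2.12% were called higher. Cd22 and 2 genes of the chemokine list passed the filter through PTS + RS alone, and 1 gene of the T cell list through RS alone. The direction of these genes was fixed by passing it.

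The comparison of HDAC3 inhibitor with NaCl asks what RGFP109 changed after stroke and stress. None of the 9 markers separated the groups, against 26.6% of all tested genes, which hold only 4 of the 9. Each group joins a cortex-labelled and an amygdala-labelled library. For the 7 markers whose libraries separate by label, overlap of the treatments was therefore fixed by the design and gives no result on the inhibitor. Of 17565 tested genes, 0.0% were called higher and 0.0% lower by edgeR's quasi-likelihood test, with 206 genes at an unadjusted p under 0.05, and DESeq2 and limma-voom also called 0. The 4 markers tested were Cd4, Lck, Ighm and Igkc, of which Cd4 and Igkc passed the filter only through the amygdala-labelled libraries.

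Ighm was at 7.85 and 23.1 CPM in HDAC3 inhibitor 1 and 2 and at 7.84 and 20.6 CPM in NaCl 1 and 2. The values nearly coincided within each labelled tissue, and the log2 fold change was 0.13 (SE 0.683, 95% interval -1.65 to 1.90). Cd4 was at 0.317 and 11.7 CPM against 0.341 and 10.5 CPM, a log2 fold change of 0.16 (SE 1.83, -4.58 to 4.90). Igkc was at 0.190 and 3.17 CPM against 0.0568 and 5.97 CPM, a log2 fold change of -0.82 (SE 1.83, -5.56 to 3.93). Lck was at 1.39 and 1.49 CPM against 1.42 and 1.84 CPM, a log2 fold change of -0.18 (SE 0.433, -1.30 to 0.95). The intervals of Cd4 and Igkc span more than 8 log2 units while each group joins a low and a high library. This fit has no term for the labelled tissue, so its intervals include the difference between the labels. With the replicate number as a block, the 95% intervals were -0.84 to 1.01 for Cd4, -0.51 to 0.69 for Ighm, -2.21 to 1.30 for Igkc and -1.33 to 0.99 for Lck. Without NaCl 1, the library with olfactory bulb transcripts, the log2 fold change was -0.79 for Cd4, -0.41 for Ighm, -1.79 for Igkc and -0.36 for Lck, and none was called.

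Between the amygdala-labelled libraries alone, without a test, HDAC3 inhibitor over NaCl was 1.11 for Cd4 (95% counting interval 0.911 to 1.34), 1.12 for Ighm (0.973 to 1.28), 0.809 for Lck (0.479 to 1.34) and 0.531 for Igkc (0.383 to 0.719). Igkc was thus the only one of these 4 whose counting interval lay away from 1, in a comparison of 1 library with 1 library. Between the cortex-labelled libraries the ratio was 0.929 for Cd4, 1.00 for Ighm and 0.981 for Lck, all with intervals that include 1. The ratios of single libraries are of TMM-normalized CPM, while their counting intervals scale the counts by plain library totals. For the 5 genes with few counts, the counts of both libraries summed to 10 against 8 for Cd3e, 9 against 7 for Cd3g, 7 against 6 for Cd8a, 9 against 4 for Cd2 and 5 against 7 for Cd79b, and every 95% counting interval of the ratio included 1.

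Between the labelled tissues, Cd4, Igkc, Ighm and Lck had enough counts to be fitted. Cd4 and Igkc passed the filter through the amygdala-labelled libraries alone, with fewer than 10 counts in each cortex-labelled one, so that their direction was fixed by passing it. Cd4 was at 11.7 and 10.5 CPM in the amygdala-labelled libraries (11.1 ± 0.84, SD, n = 2) and at 0.317 and 0.341 CPM in the cortex-labelled ones (0.329 ± 0.017). The log2 difference, with treatment as a term, was 5.04 (SE 0.385, 95% interval 4.02 to 6.06). Igkc was at 4.57 ± 1.98 CPM against 0.123 ± 0.094 CPM, a log2 difference of 5.11 (SE 0.737, 3.16 to 7.06), and Ighm at 21.9 ± 1.82 against 7.84 ± 0.011 CPM, a log2 difference of 1.48 (SE 0.232, 0.86 to 2.09). Lck was at 1.67 ± 0.25 against 1.41 ± 0.019 CPM, a log2 difference of 0.24 (SE 0.440, -0.92 to 1.40).

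No gene passed the call rule of edgeR's quasi-likelihood test in this comparison, 0.0% higher and 0.0% lower of 17565, with 1607 genes at an unadjusted p under 0.05. The adjusted p was 0.189 for Cd4, 0.327 for Igkc and 0.340 for Ighm by that test. DESeq2 called 154 genes higher and 53 lower, among them Cd4 (adjusted p = 9.66e-10), Igkc (6.13e-04) and Ighm (0.0430) as higher, and limma-voom called 0. Without a filter edgeR's quasi-likelihood test called the same 3 of the 9 markers. Which call is made therefore depends on the tool and the filter. The sign was the same under every alternative run for these 3 genes, but all alternatives reuse the same libraries, so this is no independent check.

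Of the 9 markers, 7 did not overlap between the labelled tissues and were higher in the amygdala-labelled libraries (Cd3e, Cd3g, Cd4, Cd2, Lck, Ighm and Igkc). Of all tested genes, 21.6% separated in that direction and 44.0% in either. Cd3e, Cd3g and Cd2 did not pass the filter, and the share among genes with so few counts was not obtained. For the markers left to counts, both libraries of a label added up, Cd3e had 15 counts against 3 (ratio 4.11, 95% counting interval 1.16 to 22.2) and Cd3g 12 against 4 (2.47, 0.748 to 10.5). Cd2 had 12 counts against 1, which is under the floor, and no fold is given. Cd8a had 8 against 5 counts (1.32, 0.380 to 5.11) and Cd79b 8 against 4 (1.65, 0.441 to 7.47), and both overlapped. Within the HDAC3 inhibitor pair alone, which leaves out NaCl 1, Cd4 was 36.8-fold (15.7 to 115) and Ighm 2.95-fold (2.44 to 3.65) higher in the amygdala-labelled library. Within the NaCl pair Cd4 was 30.7-fold (13.3 to 81.3) and Ighm 2.63-fold (2.07 to 3.08) higher. These folds are of TMM-normalized CPM, while their counting intervals scale the counts by plain library totals. Igkc had 3 and 1 counts in the cortex-labelled libraries, at and under the floor, and no fold is given for its pairs.

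**Figure D4:**
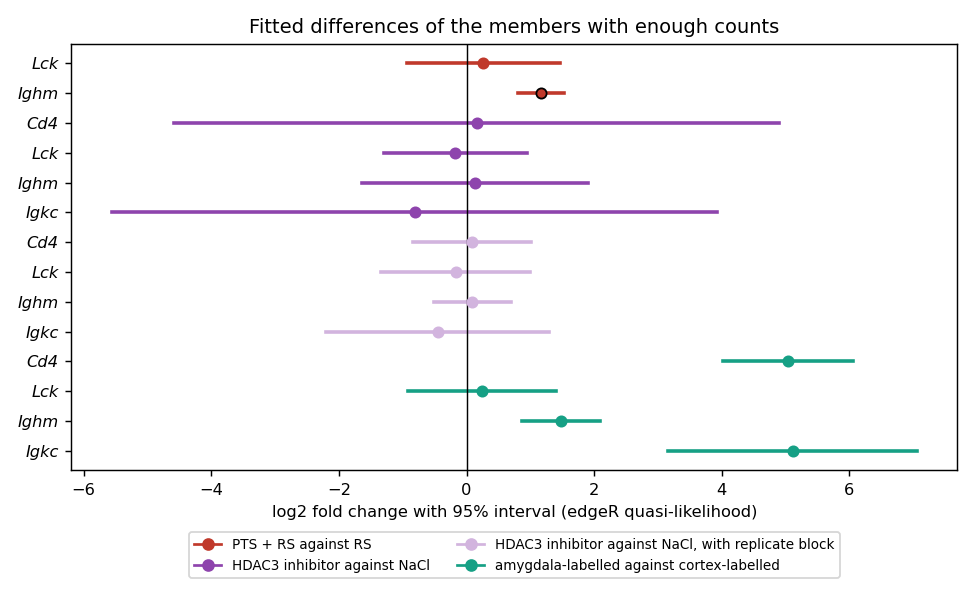
Log2 fold change (x axis) with 95% interval (bars) from edgeR's quasi-likelihood fit for each marker with enough counts (y axis), coloured by comparison; the light purple set repeats HDAC3 inhibitor against NaCl with the replicate number as a block, and the black outline marks the one call. The bars of Ighm in PTS + RS against RS, and of Cd4, Igkc and Ighm in amygdala-labelled against cortex-labelled, lie to the right of 0, and all others cross it.

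Antigen receptor segments followed Cd4 and Igkc across the labels in part. T cell receptor constant genes had 201 and 149 counts in the amygdala-labelled HDAC3 inhibitor and NaCl libraries against 21 and 18 in the cortex-labelled ones, nearly all of the difference in Trbc2, with 183 and 132 counts against 8 and 2. Trac, the alpha constant gene, had 7 and 9 counts against 11 and 7, and the 144 T cell receptor variable genes summed to 11 and 14 counts against 6 and 3. Trbc1 and Trbc2 are near-identical copies, so reads that match both may be lost or split, and the value of Trbc2 is uncertain to that extent. Each of Cd3e, Cd3g, Trac and the summed variable genes thus stayed at or under 14 counts in these 4 libraries, while Cd4 and Trbc2 passed 100 in both amygdala-labelled ones and had at most 8 in the cortex-labelled ones.

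Immunoglobulin segments of several kinds were higher there. The 12 constant genes other than Ighm had 245 and 431 counts in the amygdala-labelled HDAC3 inhibitor and NaCl libraries and 15 and 58 in the cortex-labelled ones. Igha, the IgA heavy chain, accounted for 74 and 214 against 5 and 0, and Ighg2c for 91 and 75 against 4 and 53, where the IgG constant genes are close copies and may exchange reads. Variable genes summed to 73 and 150 counts, spread over 24 and 42 genes, against 2 counts over 2 genes in each cortex-labelled library. Ms4a1 had at most 1 count in any of these 4 libraries, and Jchain had 21 and 47 against 11 and 18.

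**Figure D5:**
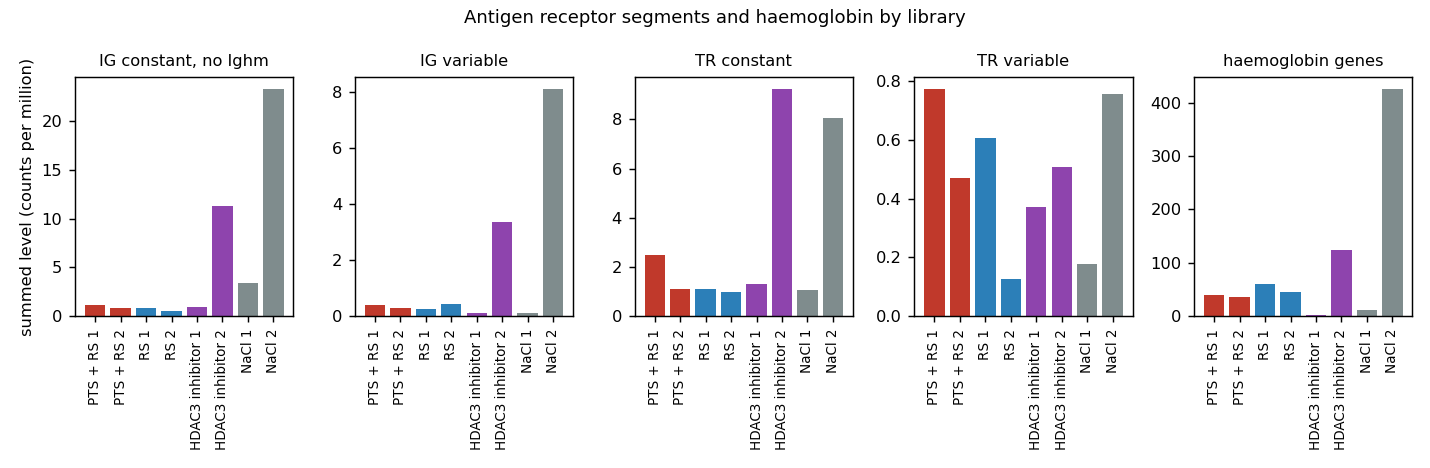
Summed level in CPM (y axes, each from 0, scales differ) of immunoglobulin constant genes without Ighm, immunoglobulin variable genes, T cell receptor constant genes, T cell receptor variable genes and haemoglobin genes in each library (x axis), 1 bar per library, coloured by group. HDAC3 inhibitor 2 and NaCl 2, the amygdala-labelled libraries, have the tallest bars in every panel but that of T cell receptor variable genes.

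Other cell types also differed by label, in both directions. All 8 choroid plexus genes had a negative log2 difference in the fit (median -1.51), a direction that rests on HDAC3 inhibitor 1. Their sum was 221 and 199 CPM in the amygdala-labelled HDAC3 inhibitor and NaCl libraries against 2186 and 180 CPM in the cortex-labelled ones. Within the NaCl pair, Enpp2 and Kl were higher in the amygdala-labelled library (181 against 135 and 5.16 against 2.78 CPM). Ttr was lower there (1.36 against 1.87 CPM). Of 8 endothelial genes 5 were lower (median -0.32). The red blood cell genes, 5 of 5 higher, summed to 127 and 437 CPM in the amygdala-labelled HDAC3 inhibitor and NaCl libraries against 1.65 and 12.9 CPM in the cortex-labelled ones, with Hbb-bt at 0 in HDAC3 inhibitor 1. Microglia and macrophage genes summed to 387 and 396 against 309 and 238 CPM (9 of 10 higher), and meningeal and perivascular genes to 130 and 232 against 133 and 104 CPM (6 of 8 higher, Col3a1 with 428 and 1055 against 120 and 126 counts). Igkc and Lck, like the red blood cell genes, were higher in NaCl 2 than in HDAC3 inhibitor 2, while Cd4 and Ighm were lower. The part of blood, meninges, choroid plexus or brain region in the levels of the markers was not tested, and the labelled tissue cannot be told apart from the replicate number.

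The other lymphocyte lists were read for the same label by direction. Of T cell receptor genes 5 of 8 tested were higher (median log2 difference 0.41), of B cell and plasma cell genes 6 of 7 (1.33), of chemokines, receptors and adhesion genes 12 of 14 (0.64) and of transcription factors 5 of 8 (0.24), against a median of -0.01 over all tested genes. These tallies are a description only, since 3, 1, 2 and 1 of the tested genes of these lists had fewer than 10 counts in each cortex-labelled library, passed the filter through the amygdala-labelled ones and so had to be higher. Under the inhibitor the same lists had medians of -0.02, -0.51, -0.28 and -0.04. Of natural killer genes none passed the filter, and Tbx21 had 515 counts in NaCl 1 against 1 to 8 in the other 7 libraries. Il2rb and Gzmk of the same list had 4 and 0 counts in NaCl 1, which is also the library with olfactory bulb transcripts. The source of the Tbx21 counts was not tested.

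The remaining lists give the setting of these levels. In PTS + RS against RS, 1 of 5 dendritic cell genes rose (Itgax, which microglia also express, 175 and 91 against 7 and 5 counts). Itgax passed the filter through PTS + RS alone, so that its direction was fixed by passing it. None of 10 neutrophil genes passed the filter, and none of the meningeal and perivascular, choroid plexus, endothelial, neuronal, cortical or amygdala genes was called by edgeR's test. The numbers of these with an unadjusted p under 0.05 were 1, 3, 2, 1, 1 and 1. The neutrophil genes S100a8, S100a9 and Mpo had at most 18 counts in any library, and the summed level of the neutrophil list was between 0.315 and 2.71 CPM.

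Over all 8 libraries, the genes most like the summed T cell markers, by Pearson correlation of log2(CPM + 1) among 16003 genes of both tables, were Myl4 (0.993), Trbc2 (0.991), Drd1 (0.989), Arpp19 (0.989) and Jcad (0.989). Drd1, the dopamine receptor that marks neurons of the striatum, was at 49.1 and 48.9 CPM in the amygdala-labelled libraries and between 3.76 and 6.65 CPM in the other 6. The genes most like the summed B cell markers were Pik3r5 (0.970), Ssh2 (0.969), S100a6 (0.968), Ak3 (0.967) and Arhgap25 (0.966). Pik3r5, a regulatory subunit of a leukocyte phosphoinositide kinase, was at 6.64 and 5.02 CPM in PTS + RS, 1.93 and 2.08 CPM in RS, 2.41 and 6.44 CPM in HDAC3 inhibitor 1 and 2, and 2.21 and 7.60 CPM in NaCl 1 and 2. These correlations are descriptions chosen as the highest of many. The points share libraries with the markers, and those of the T cell sum rest on the amygdala-labelled pair, where Cd4 makes up most of the sum.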

How the data were processed

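Total RNA of 8 mouse brain libraries was sequenced. By the methods and processing notes of the study, paired-end reads were aligned by the authors with STAR 2.4.0 against GRCm38 (mm10), and HTSeq 0.6.1 counted them per gene. The deposited raw counts were not normalized. The deposited FPKM values were made by the authors from the counts, the gene length and the mapped reads. The sources name different library kits, and the strand setting of the counting is not given in the sources used here: Cd3e shares 135 exon bases with the antisense gene Gm48719, which had no count. Igkc, Lck and Cd3e also overlap Gm30211, Mir8119 and Gm48720, all without a count. The authors' fold changes and p-values, and 8 columns of normalized signal per library, were not used. Genes of the second table were matched to identifiers of the first by position, with the same symbol in 100.0% of 28229, and all 9 markers have the same coordinates in GENCODE M21.

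Counts were filtered with filterByExpr at its default settings (minimum count 10, minimum total 15), normalized by TMM, and compared by edgeR's quasi-likelihood test (edgeR 4.0.16, R 4.3.3) with Benjamini-Hochberg adjustment, within each table. PTS + RS was compared with RS, HDAC3 inhibitor with NaCl, and the amygdala-labelled with the cortex-labelled libraries with treatment as a term. Alternatives were DESeq2 1.42.0, limma-voom (limma 3.58.1), DESeq2 size factors, no filter, at least 5 counts in all, a replicate block, no treatment term and leaving out each library. Standard errors were obtained from the fold change and its F value, and intervals are 95%. Count ratios have exact binomial intervals, with counts scaled by plain library totals. Ratios of single libraries are of TMM-normalized CPM, so such an interval is not centred on its ratio. Figures and counts were made with Python 3.11.15, pandas 2.3.3 and matplotlib 3.10.9, and the fits were tested on simulated data.

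The 9 markers and the 15 lists of other genes (176 genes) were chosen with earlier results of these data known. In each list, every called gene was named when there were 6 or fewer, otherwise the 6 with the highest mean CPM, and, where a result turned on a list without a call, from the 3 with the highest mean CPM. Some genes of these lists are not reported here by name, and the counts and medians over a list include them. Antigen receptor genes such as Trac and Igha were named beside the markers after their counts were seen. The similar genes were the 5 with the highest correlation among genes of mean CPM of at least 1, with a pseudocount of 1.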

Additional observations from a re-analysis of the deposited data

Results flagged for a closer look

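The ratio of HDAC3 inhibitor to NaCl for Cd4 pointed in opposite directions in the 2 labelled tissues. It was 0.929 in the cortex-labelled pair (5 against 6 counts) and 1.11 in the amygdala-labelled pair (250 against 193 counts), a log2 difference of 0.26 between the pairs. This difference was not tested, with 1 library per treatment and label, and the 95% counting intervals of both ratios include 1 (0.211 to 3.44 and 0.911 to 1.34).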

How the results depend on the processing

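Ighm was called higher in PTS + RS under every alternative but the omission of RS replicate 1 or RS replicate 2, which left 0 markers called, against 1 otherwise. Its log2 fold change ranged from 1.06 to 1.29 over the omissions, and that of Lck from -0.24 to 1.10, the negative value without RS replicate 2. All genes called in that comparison numbered 389, 759 without a filter, and 206 to 768 when a library was left out (206 without RS replicate 1, 235 without RS replicate 2, 768 without PTS + RS replicate 2). For HDAC3 inhibitor against NaCl no alternative called a marker, and the omissions called 0 to 8 genes in all, the 8 without NaCl replicate 2. Over the omissions the log2 fold change ranged from -4.07 to 4.14 for Cd4, -0.86 to 1.00 for Ighm, -3.94 to 4.77 for Igkc and -0.36 to 0.033 for Lck. It was -4.07 for Cd4 and -0.86 for Ighm without HDAC3 inhibitor replicate 2, and -0.79 and -0.41 without NaCl replicate 1. For Lck it was 0.033 without NaCl replicate 2. For Igkc it was 4.77 without NaCl replicate 2, 0.07 without HDAC3 inhibitor replicate 1, and 0.38 by limma-voom. For amygdala-labelled against cortex-labelled, DESeq2 called 3 markers of 207 genes, no filter gave 3 of 240, and the filter of at least 5 counts gave 1 (Cd4) of 50, while edgeR with its default filter, limma-voom and the fit without a treatment term called 0. The cause was not tested. Leaving out a library there leaves no residual degrees of freedom, so only log2 CPM differences within 1 pair were obtained, with a prior count of 2. They ran from 4.56 to 4.79 for Cd4, 1.38 to 1.55 for Ighm and 0.09 to 0.35 for Lck. Without the prior count, those of Cd4 were 5.20 in the HDAC3 inhibitor pair and 4.94 in the NaCl pair. None is read for Igkc, with 3 and 1 counts in the cortex-labelled libraries.

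With the replicate number as a block, 475 genes were called in PTS + RS against RS, Ighm among them (log2 1.17, adjusted p = 0.00623 in edgeR), and Lck stood at 0.34. For HDAC3 inhibitor against NaCl the block, which there is the labelled tissue, gave 0.09 for Cd4, 0.09 for Ighm, -0.46 for Igkc and -0.17 for Lck, with no call, and it changed no call of a marker. The correlation of same-numbered deviations over genes was 0.035 in the first table and 0.299 in the second. Depth limits the 5 genes with few counts: 3 counts equal 0.138 to 0.189 CPM. Leaving out a library leaves a group with 1 library, which is assumed to vary like the other group.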
